A study of Mus musculus with 10 samples.

Results

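The replication origin and fork genes are 43 mouse genes whose products mark, license and fire replication origins or copy DNA at the moving fork. They were taken by gene symbol from the 22923 symbols of the expression tables, and every one of the 43 was found. By role they comprise 9 genes of origin recognition and licensing, the 2 subunits of the firing kinase, 6 helicase cofactors, 9 polymerase and primase subunits, 7 genes of the sliding clamp and its loaders, and the 3 subunits of the single-strand binding protein. The remainder are 2 genes of Okazaki fragment joining, 3 fork protection and checkpoint mediators and 2 subunits of the chromatin assembly factor.

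RNA sequencing covered 5 sorted populations of C57bl/6 mice aged 4 weeks. Cycling and quiescent CD4+CD8+ thymocytes came from the thymus, and large pre-B cells, small pre-B cells and mature granulocytes came from the bone marrow. Control mice were Dyrk1a flox/flox and Mx1-Cre-, so they carried the floxed alleles without the recombinase. The mice labelled CKO were Dyrk1a -/- and Mx1-Cre+; the Mx1 promoter responds to interferon and drives Cre in many cell types, blood cells included. Each of the 10 libraries came from a pool of 2 mice, so each population had 1 library per genotype and no replication between animals.

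The kinase DYRK1A acts on proteins that steer cells between division and rest, among them cyclin D and the LIN52 part of DREAM, which keeps cell cycle genes off in resting cells. Origins are licensed in G1 phase, when the origin recognition complex, Cdc6 and Cdt1 load the MCM helicase on DNA, and they fire in S phase, when the Cdc7-Dbf4 kinase and cyclin-dependent kinases bring in Cdc45 and GINS. Many of these genes are known E2F targets, silent in resting cells and transcribed before S phase. CD4+CD8+ thymocytes and pre-B cells both pass through a burst of division and then stop dividing while they rearrange an antigen receptor gene.

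Values are FPKM, fragments per kilobase of transcript relative to the mapped total of each library. The unit is inferred from the tools that the submitters name. In every pair of values below the control library comes first and the library labelled CKO second. Sequencing depth was not given; the sum of all values was 360394 to 431868 FPKM per lymphoid library, and 830006 and 1074258 FPKM for granulocytes. The Dyrk1a transcript did not follow the genotype label, at 31.2 and 42.3 FPKM in cycling thymocytes, 37.4 and 44.7 in quiescent thymocytes, 33.2 and 34.4 in large pre-B cells, 34.1 and 36.9 in small pre-B cells and 32.1 and 41.9 in granulocytes. Every library labelled CKO was above its control, and the shared difference over the 4 lymphoid populations in log2(FPKM + 1) was 0.21 (SE 0.09, adjusted p = 0.295 in limma). A value for the whole gene does not show whether the floxed exons were lost. The thymocyte and pre-B libraries carried the markers of their labelled cells. The 8 CD4+CD8+ thymocyte markers summed to 1583 to 2815 FPKM in thymocyte libraries and 99.1 to 587 FPKM in pre-B libraries. The 8 pre-B markers summed to 1947 to 5424 FPKM in pre-B libraries and 253 to 653 FPKM in thymocyte libraries. Rag1 is on both lists. All 8 of each list were at 1 FPKM or more in every library of their lineage. That bar alone is weak, as all 8 pre-B markers also reached it in granulocytes labelled CKO. In control granulocytes, 3 of 9 late granulocyte markers (Ngp, S100a8 and S100a9) were listed at 0, as was S100a9 in the granulocytes labelled CKO. An exact 0 is therefore read as a possible failed estimate. Among the 43 genes this concerned 1 value, Gins2 in quiescent thymocytes labelled CKO, which was counted as missing.

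**Figure D1:**
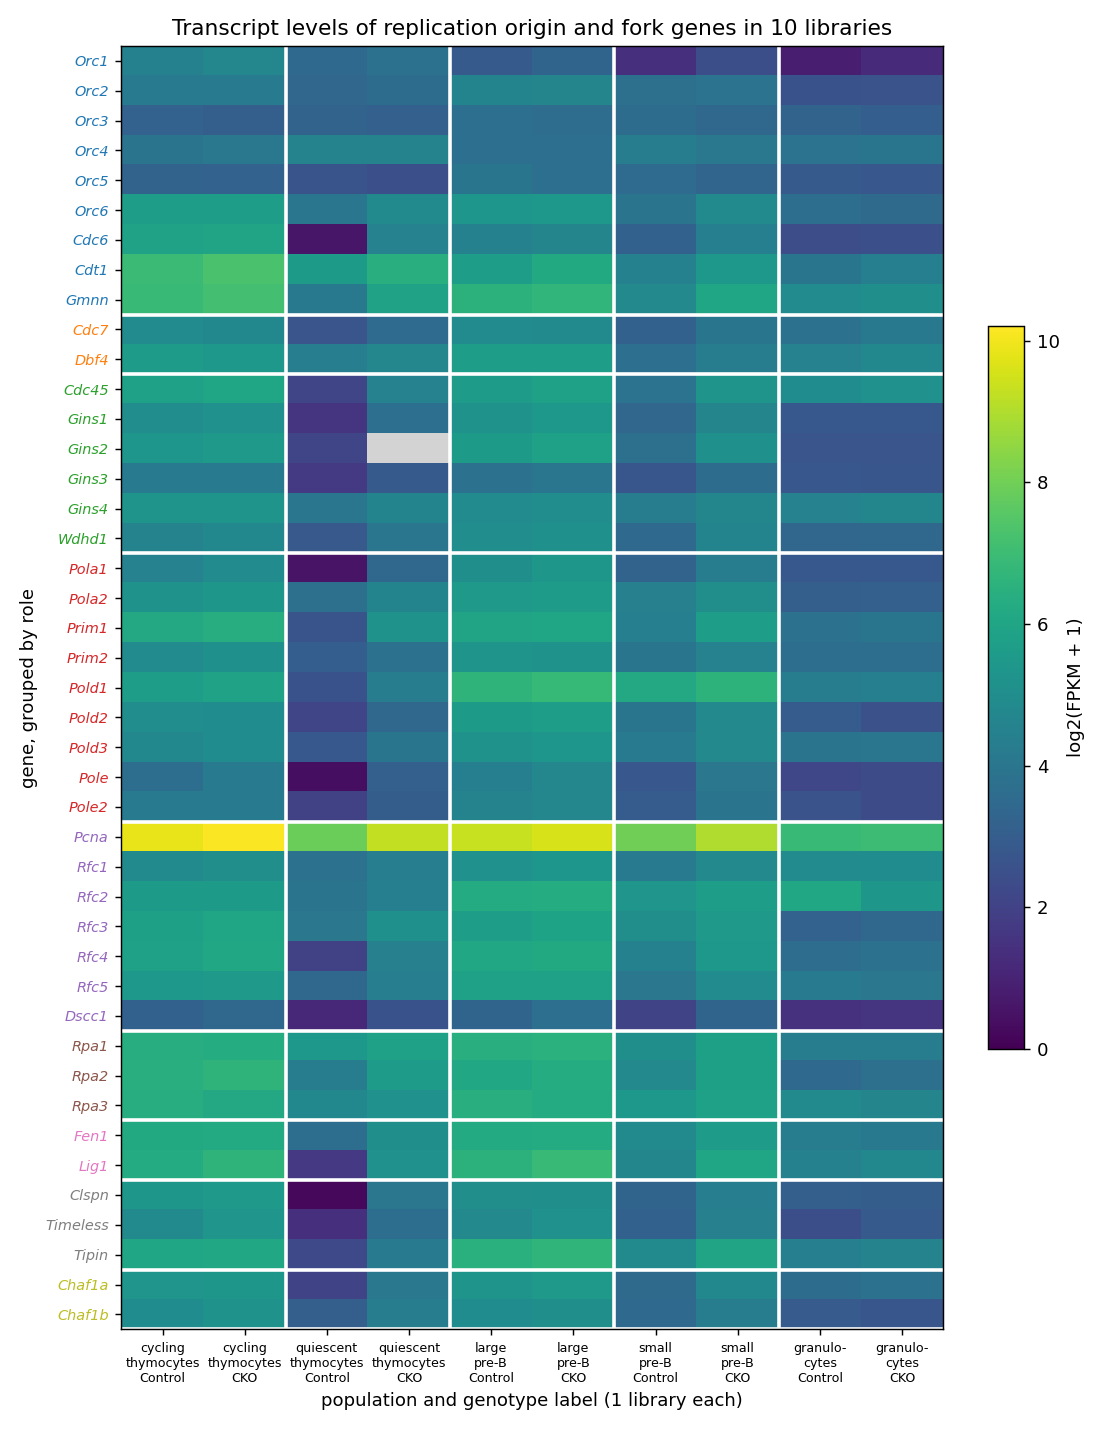
Levels of the 43 genes on the log2(FPKM + 1) scale (colour), with genes in rows grouped by role and the 10 libraries in columns; grey marks the missing Gins2 value. Pcna is the brightest row in every library, and the darkest cells are those of Clspn, Pole, Pola1 and Cdc6 in control quiescent thymocytes.

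All 43 genes were at 5 FPKM or more in the control library of the dividing population of each lineage. In control cycling thymocytes their levels ran from 8.06 FPKM (Dscc1) to 923 FPKM (Pcna) with a median of 39.5, and in control large pre-B cells from 6.48 FPKM (Orc1) to 646 FPKM (Pcna) with a median of 37.6. In control quiescent thymocytes the median was 6.17 FPKM and 26 of the 43 genes were at 5 FPKM or more. In control small pre-B cells the median was 14.6 FPKM, and 41 genes were at 5 FPKM or more. Control granulocytes had a median of 11.3 FPKM. FPKM are relative within a library, and in these bulk samples fewer replicating cells and less RNA of these genes per cell cannot be told apart.

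Quiescent thymocytes held far less of nearly every replication transcript than cycling thymocytes. Over both genotypes 41 of the 43 genes fell and 1, Orc4, rose (limma, adjusted p under 0.05), where 19.9% of the 11123 genes tested fell and 25.5% rose. The median log2 difference of the 43 genes was -1.58, against 0.06 for all genes. The deepest falls were those of Cdc6, the loader of the MCM helicase, and of Clspn, which encodes claspin, the adaptor of the checkpoint kinase Chk1. In the control libraries Clspn in quiescent cells was 0.406% of its level in cycling cells and Cdc6 was 0.939%. In all, 14 of the 43 genes were under 10% of their cycling level, as were 2.46% of the 7569 genes at 5 FPKM or more in control cycling thymocytes. These calls rest on few libraries. Without the 2 control thymocyte libraries the median was -1.08, and calls were lost over all genes as well as among the 43. With no filter on low values 21 of the 43 were called, beside 3536 over all genes, where the full fit called 5040.

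Small pre-B cells held less of these transcripts than large pre-B cells. Here 22 of the 43 genes fell and Orc4 again rose, beside 22.1% of the 11126 genes tested that fell and 25.9% that rose. The log2 difference was negative for 42 of the 43, with a median of -1.01 against 0.04 for all genes. The lowest share left in the control libraries was that of Dbf4, the activating subunit of the Cdc7 kinase, at 23.5%, and no gene was under 10%. Leaving out either pre-B pair cut the calls over all genes as well as among the 43. Leaving out either thymocyte pair gave 38 or 39 calls among the 43, beside 4998 or 5038 over all genes, where the full fit called 5348. The median log2 difference was -0.65 without the control pre-B pair and -1.41 without the pair labelled CKO. With no filter on low values 8 of the 43 were called, beside 4043 over all genes, and with no block 10, beside 3714. The fit gives each gene 1 spread for both lineages, so differences between genotypes in the thymocyte state effect also enter the pre-B tests. Gins2, which passed here, is an exception: with its missing library, thymocytes add nothing to its spread. Markers of other cells also differed between large and small pre-B cells. The 5 primary granule markers of promyelocytes summed in large cells to 922 FPKM (control) and 385 FPKM (labelled CKO), all 5 at 1 FPKM or more in both. In small cells they summed to 19.8 FPKM in the control (5 at 1 FPKM or more) and 11.2 FPKM in the library labelled CKO (3 of 5). The 5 erythroid markers found summed to 99.95 and 93.9 FPKM in the same large-cell libraries (5 of 5 in both) and to 14.5 and 37.2 FPKM in the small-cell libraries (1 of 5 in both). No marker of either list was at 0 in these 4 libraries, and their part in the pre-B differences was not tested.

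The difference between the lineages in this effect (pre-B cells minus thymocytes, log2) passed the test for none of the 43 genes, beside 3.37% of the 11123 genes tested that passed upwards and 3.81% downwards. At an unadjusted p under 0.05 there were 4 of the 43 and 28.4% of all genes. The nearest to the threshold were Pold1, the catalytic subunit of polymerase delta, with a difference of 1.98 (SE 0.50, adjusted p = 0.0727), and Gins2 with 2.01 (SE 0.48, adjusted p = 0.0799), a fit that leaves out the missing Gins2 library. Pold1 stood at 51.4 and 57.8 FPKM in cycling thymocytes, 4.94 and 19.01 in quiescent thymocytes, 97.98 and 113 in large pre-B cells, 69.6 and 95.8 in small pre-B cells and 19.3 and 20.2 in granulocytes. In control cells it was thus at 9.599% of the cycling level in quiescent thymocytes and at 71.02% of the large-cell level in small pre-B cells. The median difference over the genes was 0.62, and 0.09 without the control thymocyte pair. Without the 2 thymocyte libraries labelled CKO this median was 1.18.

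**Figure D2:**
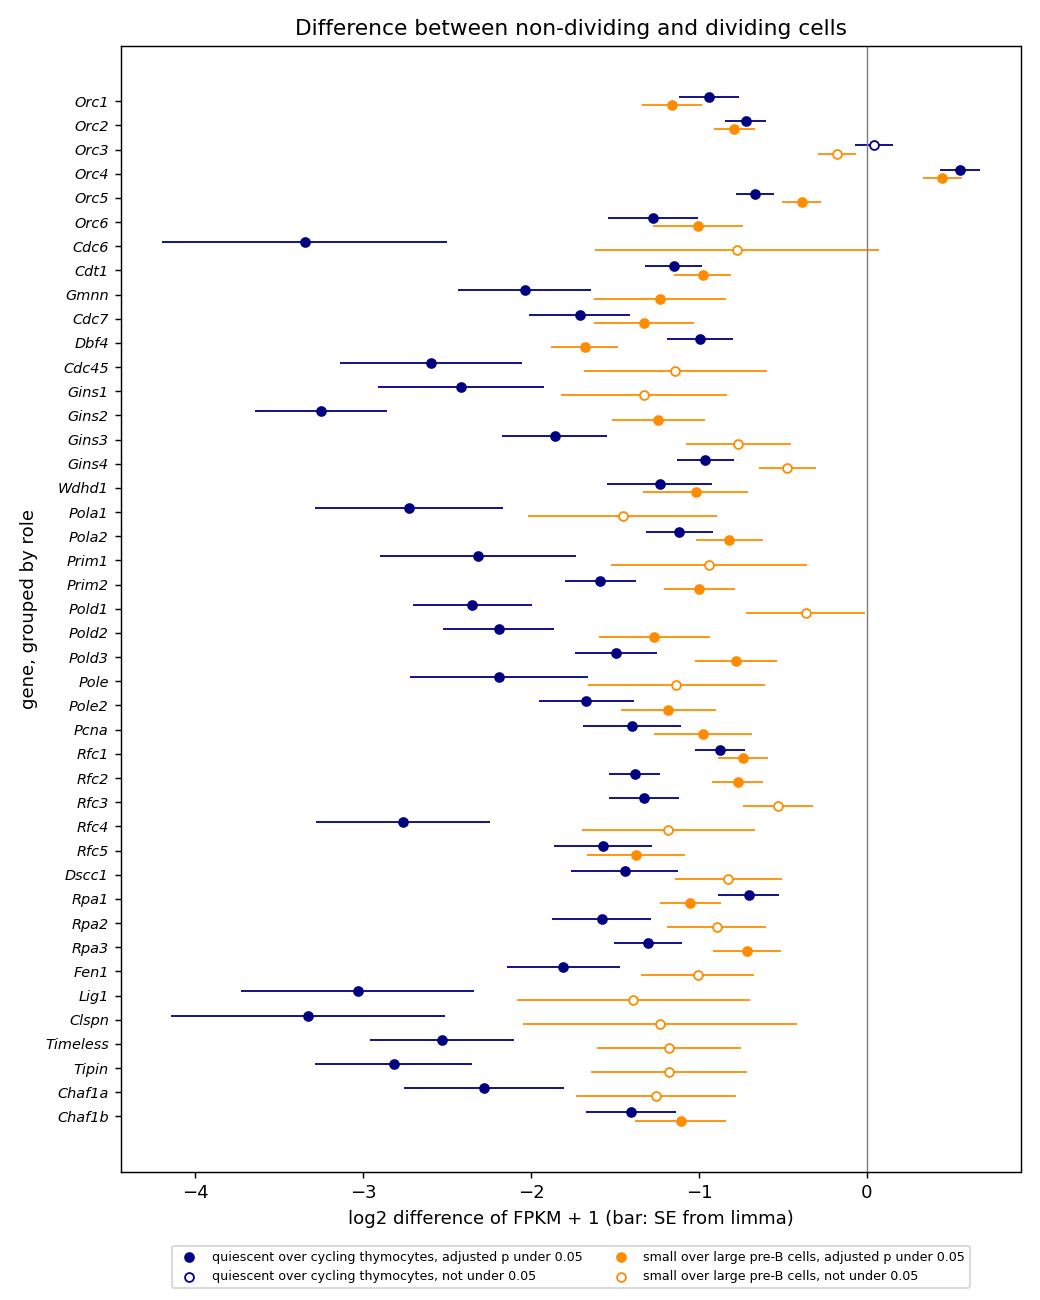
Log2 difference of FPKM + 1 between non-dividing and dividing cells (points, with the standard error of limma as bars) for each gene in thymocytes and in pre-B cells, filled where the adjusted p is under 0.05. Most points lie left of 0, with medians of -1.58 and -1.01, and Orc4 lies right of 0 in both lineages.

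Replication transcripts differed between the genotypes mostly in quiescent thymocytes and small pre-B cells, here called the non-dividing populations. Granulocytes, which have no dividing counterpart in these data, are not counted among them. In quiescent thymocytes 23 of the 41 genes that reached 5 FPKM in the higher library and had both values were at least 2-fold higher in the library labelled CKO and none was 2-fold lower, where 3.57% of all genes so considered were higher and 1.56% lower. In small pre-B cells 16 of 42 were at least 2-fold higher and none lower, where 4.5% and 1.76% of all genes were. Genes under 5 FPKM in the control library entered these counts only through the library labelled CKO, so they could only be higher. With no filter on low values 24 genes in quiescent thymocytes and 17 in small pre-B cells were 2-fold higher, and none was lower. Between cycling thymocytes none of the 43 was 2-fold apart, against 0.31% higher and 0.491% lower of all genes. Large pre-B cells likewise had none of 43, against 0.771% and 0.936%. Granulocytes had none of 39, against 0.52% and 1.74%. The median log2 ratio was 1.14 in quiescent thymocytes and 0.90 in small pre-B cells, but 0.17, 0.15 and 0.03 in cycling thymocytes, large pre-B cells and granulocytes. Of the genes 2-fold higher, 14 were so in both non-dividing populations, which is 60.9% of the 23 and 87.5% of the 16. With 23 of 41 and 16 of 42 genes higher, many shared genes arise from these numbers alone. The overlap was not tested, and that over all genes was not counted. With 1 library per group these ratios have no test, and a pseudocount of 5 left 7 genes 2-fold higher in small pre-B cells.

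**Figure D3:**
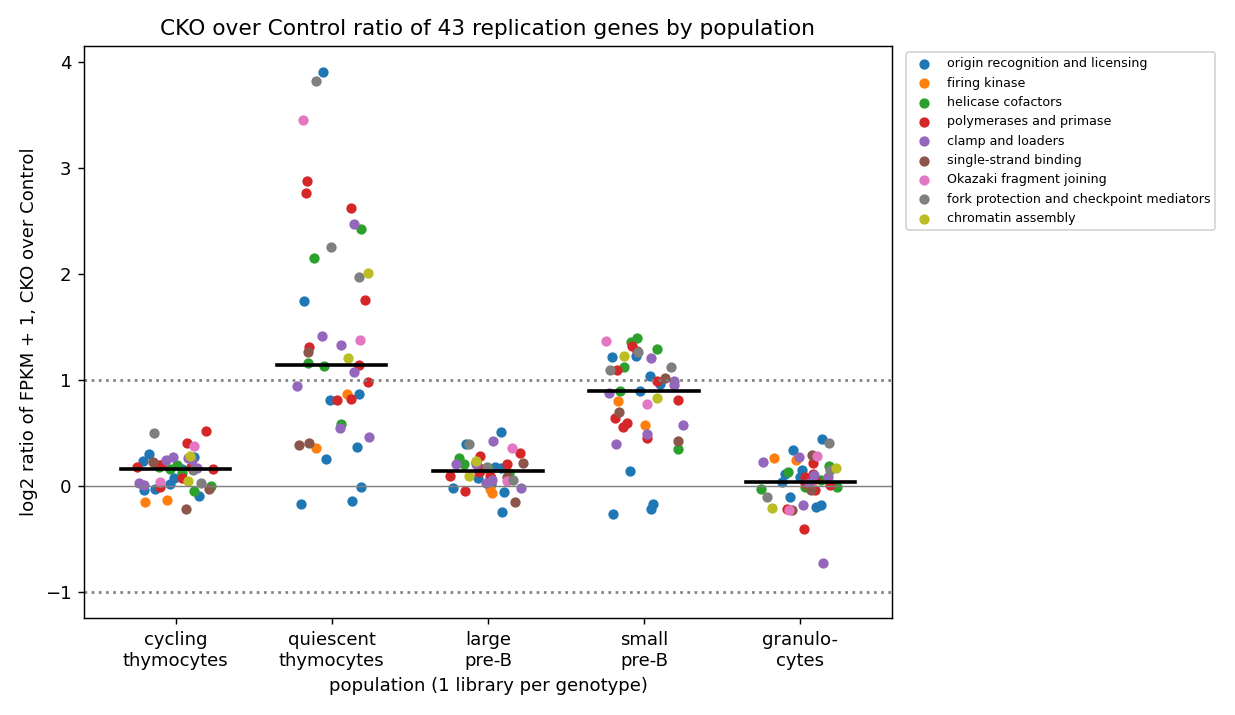
Log2 ratio of FPKM + 1, library labelled CKO over control, for each gene (points, coloured by role) in each population; bars are the medians of genes at 5 FPKM or more in the higher library and dotted lines mark 2-fold. Points spread upwards to 3.91 (Cdc6) in quiescent thymocytes and to 1.39 (Cdc45) in small pre-B cells, and lie near 0 in the other 3 populations.

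With quiescent thymocytes and small pre-B cells taken as replicates of a non-dividing state, 40 of the 43 genes had a positive log2 difference (median 1.02, all genes -0.03). None of the 43, and 0% of the 11124 genes tested, passed the adjusted threshold in this limma fit. At an unadjusted p under 0.05 39 of the 43 were higher in the libraries labelled CKO, as were 9.95% of all genes. The lowest adjusted p, 0.0586, was shared by Cdc7, Cdt1, Dscc1, Gmnn, Orc6, Pole2, Rfc5, Rpa2 and Wdhd1, and was also the lowest of all genes. Other settings of this fit gave calls. Median ratio scaling called 10 of the 43, beside 94 over all genes, and a lineage by genotype term called 39, beside 1368. The median was 0.90 without the quiescent thymocyte pair and 1.15 without the small pre-B pair. In the dividing populations the same fit gave a median of 0.14, with 0 of 43 called and 2, Cdt1 and Dscc1, at an unadjusted p under 0.05, where 4.16% of the 11120 genes tested were. The difference between the states had a median of 0.92 with 0 of 43 called (lowest adjusted p = 0.517) and 35 at an unadjusted p under 0.05, against 6.75% of all genes. Without the small pre-B pair 19 passed it. As 1 effect over the 4 lymphoid populations, 0 of the 43 passed, beside 0.018% of all genes that did so upwards and 0.00899% downwards, and 25 were at an unadjusted p under 0.05, as were 16.9% of all genes.

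Other transcripts moved with these ratios. In quiescent thymocytes the summed level of 20 mitotic markers such as Top2a was 58.3 FPKM in the control library (14 at 1 FPKM or more, none at 0) and 392 FPKM in the library labelled CKO (all 20 at 1 FPKM or more). In small pre-B cells that sum was 377 and 785 FPKM, with all 20 at 1 FPKM or more in both. The cycling thymocytes, at 2099.9 and 2119.7 FPKM, and the large pre-B cells, at 2690.1 and 2827 FPKM, were close to each other. In granulocytes the sum was 1107 and 1184 FPKM, with all 20 at 1 FPKM or more in both. Markers of other cells also differed in the small pre-B pair: 7 large pre-B and pro-B markers summed to 493 and 1472 FPKM, 5 plasmacytoid dendritic cell markers to 25.5 and 221 FPKM (3 and then 5 at 1 FPKM or more), 7 natural killer markers to 13.2 and 114 FPKM (5 and then 7), and 6 monocyte markers to 54.4 and 124 FPKM (4 and then 5), while 8 pre-B markers summed to 5424 and 3419 FPKM. None of these lists had a member at 0 in that pair. Of the monocyte list, Mpeg1 (4.27 and 77.6 FPKM) and Ccr2 (0.846 and 4.04 FPKM) were higher in the library labelled CKO. The other monocyte markers, Csf1r, Ly86, Ms4a6c and F13a1, were lower there, as was Il7r of the large pre-B and pro-B list. In the quiescent thymocyte pair 8 CD4+CD8+ markers summed to 2815 and 2269 FPKM and 5 double negative markers to 35.7 and 26.0 FPKM. The natural killer sum there was 20.9 and 54.9 FPKM with 1 of 7 markers at 1 FPKM or more, and Gzmb and Ncr1 at 0, in both libraries. The part of dividing cells and of other cell types in the ratios was not tested.

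Among the licensing genes the 6 subunits of the origin recognition complex, which binds DNA at future origins, did not move as a unit. Orc1, the subunit known from human cells to be destroyed in each cell cycle, stood at 21.4 and 25.4 FPKM in cycling thymocytes, 10.1 and 13.4 in quiescent thymocytes, 6.48 and 8.86 in large pre-B cells, 1.68 and 4.501 in small pre-B cells and 0.806 and 1.29 in granulocytes. It was high in thymocytes and low in granulocytes. It fell by 0.94 (SE 0.18, adjusted p = 0.0113) in thymocytes and fell by 1.16 (SE 0.18, adjusted p = 0.00648) in pre-B cells. In small pre-B cells it was 2-fold higher in the library labelled CKO (log2 ratio 1.04), but not in quiescent thymocytes (0.37).

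Orc6, the smallest and least tightly bound subunit, stood at 51.3 and 51.95 FPKM in cycling thymocytes, 15.1 and 28.4 in quiescent thymocytes, 39.9 and 42.2 in large pre-B cells, 14.3 and 27.6 in small pre-B cells and 12.01 and 10.5 in granulocytes. In both lineages the non-dividing library labelled CKO lay between the non-dividing control and the dividing pair. Orc6 fell by 1.27 (SE 0.27, adjusted p = 0.0148) in thymocytes and fell by 1.005 (SE 0.27, adjusted p = 0.0286) in pre-B cells, and its log2 ratio was 0.86 and 0.90 in quiescent thymocytes and small pre-B cells. Orc2 stood at 17.7 and 17.3 FPKM in cycling thymocytes, 9.27 and 11.3 in quiescent thymocytes, 23.3 and 23.7 in large pre-B cells, 12.5 and 13.9 in small pre-B cells and 4.93 and 5.07 in granulocytes. It fell by 0.72 (SE 0.12, adjusted p = 0.009) in thymocytes and fell by 0.79 (SE 0.12, adjusted p = 0.00673) in pre-B cells, with ratios between genotypes of 0.26 and 0.14.

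The other core subunits differed. Orc4, an ATP-binding subunit, stood at 14.3 and 16.2 FPKM in cycling thymocytes, 22.8 and 22.7 in quiescent thymocytes, 12.3 and 12.1 in large pre-B cells, 18.4 and 15.7 in small pre-B cells and 13.6 and 14.8 in granulocytes. It rose by 0.55 (SE 0.12, adjusted p = 0.0148) in quiescent thymocytes and rose by 0.45 (SE 0.12, adjusted p = 0.0264) in small pre-B cells, the only one of the 43 genes to pass upwards in either comparison. Orc3, another core subunit, stood at 8.12 and 7.54 FPKM in cycling thymocytes, 8.54 and 7.67 in quiescent thymocytes, 12.1 and 11.6 in large pre-B cells, 11.1 and 9.76 in small pre-B cells and 8.5 and 7.28 in granulocytes. Its differences of 0.04 (SE 0.11, adjusted p = 0.795) and -0.18 (SE 0.11, adjusted p = 0.238) did not pass. Orc5 stood at 8.55 and 8.33 FPKM in cycling thymocytes, 5.31 and 4.63 in quiescent thymocytes, 14.6 and 12.2 in large pre-B cells, 10.98 and 9.01 in small pre-B cells and 6.37 and 5.89 in granulocytes, and fell by 0.66 (SE 0.11, adjusted p = 0.00927) and fell by 0.39 (SE 0.11, adjusted p = 0.038). Orc3, Orc4 and Orc5 were the genes whose ratio was below 0 in quiescent thymocytes and in small pre-B cells alike, at -0.14, -0.01 and -0.16 in the former and -0.17, -0.21 and -0.26 in the latter.

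**Figure D4:**
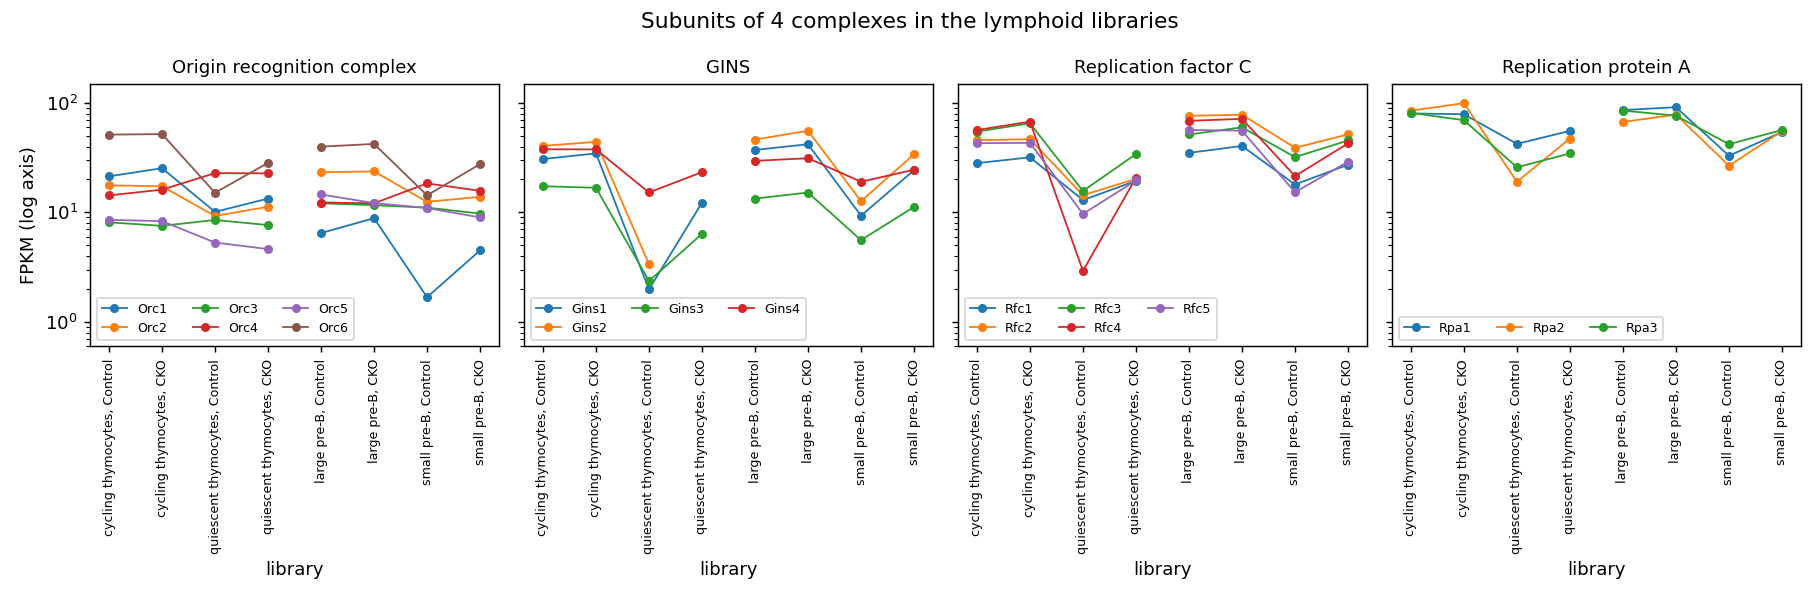
FPKM (log axis) of each subunit of 4 complexes in the 8 lymphoid libraries, with a line per subunit within a lineage; the Gins2 point of quiescent thymocytes labelled CKO is missing. Orc1 and Orc6 dip in the non-dividing controls, Orc3 stays between 7.54 and 12.1 FPKM, and Rfc4 has the lowest point of its complex, 2.93 FPKM, in control quiescent thymocytes.

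Cdc6 and Cdt1 load the helicase and geminin, encoded by Gmnn, blocks Cdt1 once S phase has begun. Cdc6 stood at 58.3 and 61.7 FPKM in cycling thymocytes, 0.548 and 22.2 in quiescent thymocytes, 21.3 and 24.3 in large pre-B cells, 8.08 and 20.3 in small pre-B cells and 4.295 and 4.64 in granulocytes. In control quiescent thymocytes Cdc6 had its only value under 1 FPKM, and the library labelled CKO held a log2 ratio of 3.91, the highest of the 43 genes. It fell by 3.35 (SE 0.85, adjusted p = 0.025) in thymocytes, and its difference in pre-B cells was -0.77 (SE 0.85, adjusted p = 0.481).

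Cdt1 stood at 124 and 154 FPKM in cycling thymocytes, 46.4 and 82.02 in quiescent thymocytes, 50.9 and 73.03 in large pre-B cells, 21.6 and 42.9 in small pre-B cells and 14.6 and 20.2 in granulocytes. It fell by 1.15 (SE 0.17, adjusted p = 0.00726) and fell by 0.98 (SE 0.17, adjusted p = 0.0089). Cdt1 was also higher in the other libraries labelled CKO, with ratios of 0.30 in cycling thymocytes, 0.51 in large pre-B cells and 0.45 in granulocytes, the highest of the 43 in the last 2 of these. Over the 4 lymphoid populations its difference of 0.65 (SE 0.12) had the lowest adjusted p of the 43, 0.179. Gmnn stood at 118 and 142 FPKM in cycling thymocytes, 16.4 and 57.1 in quiescent thymocytes, 92.7 and 105 in large pre-B cells, 26.8 and 63.8 in small pre-B cells and 29.2 and 32.6 in granulocytes, and fell by 2.04 (SE 0.39, adjusted p = 0.012) and fell by 1.23 (SE 0.39, adjusted p = 0.0476), with ratios of 1.74 in quiescent thymocytes and 1.22 in small pre-B cells.

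Promoter sequence was compared for the 34 of the 43 genes that had a window in the RefSeq promoter table (GRCm38.p6, 42 windows of 250 bases before to 50 after a transcription start). E2F sites were searched as the forms TTTCCCGC, TTTGGCGC, TTTCGCGC and TTTGCCGC on both strands. A form was found in 12 of the 34 genes (35.3%), against 2.61% of the 27025 genes of the table. The CHR element, searched as TTTGAA and TTCGAA, was found in 7 genes (20.6%, all genes 21.7%) and CCAAT, the letters bound by NF-Y, in 17 (50%, all genes 41.1%). In these windows no E2F form overlapped a match to the other motifs. Below are the windows up to 30 bases after the start for 5 genes: those with the 2 largest falls in thymocytes, the regulated subunit Orc1, the most abundant gene Pcna, and Orc3, which did not pass in either lineage. They are written 5′ to 3′ on the strand of the gene with the E2F forms in capitals. Cdc6 (chr11:98907801-98923940, plus strand), Clspn (chr4:126556935-126593903, plus strand), Orc1 (chr4:108579423-108614833, plus strand), Pcna (chr2:132249162-132253314, minus strand) and Orc3 (chr4:34570796-34614944, minus strand) are placed by GENCODE on mm10, and the stretches lie at chr11:98907901-98908180, chr4:126556730-126557009, chr4:108579204-108579483, chr2:132253151-132253430 and chr4:34614913-34615192 in that order.
Cdc6: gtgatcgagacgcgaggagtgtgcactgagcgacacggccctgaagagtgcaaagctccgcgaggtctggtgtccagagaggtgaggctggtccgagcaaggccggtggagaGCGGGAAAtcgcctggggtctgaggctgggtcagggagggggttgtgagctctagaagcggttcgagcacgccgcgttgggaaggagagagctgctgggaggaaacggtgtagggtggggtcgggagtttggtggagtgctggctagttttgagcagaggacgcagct
Clspn: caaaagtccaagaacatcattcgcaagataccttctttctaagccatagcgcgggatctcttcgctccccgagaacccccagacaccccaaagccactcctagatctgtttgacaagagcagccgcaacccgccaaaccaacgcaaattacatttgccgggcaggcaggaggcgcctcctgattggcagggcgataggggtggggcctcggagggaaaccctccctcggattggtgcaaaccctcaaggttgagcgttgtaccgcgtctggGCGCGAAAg
Orc1: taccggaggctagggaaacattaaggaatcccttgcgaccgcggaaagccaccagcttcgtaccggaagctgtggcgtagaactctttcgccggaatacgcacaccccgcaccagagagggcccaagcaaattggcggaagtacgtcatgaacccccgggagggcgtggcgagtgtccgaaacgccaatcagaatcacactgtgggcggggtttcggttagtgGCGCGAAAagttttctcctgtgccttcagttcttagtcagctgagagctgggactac
Pcna: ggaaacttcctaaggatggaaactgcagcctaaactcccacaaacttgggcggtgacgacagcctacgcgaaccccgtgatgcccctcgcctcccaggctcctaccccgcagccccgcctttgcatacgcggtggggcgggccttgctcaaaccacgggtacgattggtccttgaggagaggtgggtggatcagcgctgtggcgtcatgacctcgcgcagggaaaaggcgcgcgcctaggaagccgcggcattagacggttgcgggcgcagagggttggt
Orc3: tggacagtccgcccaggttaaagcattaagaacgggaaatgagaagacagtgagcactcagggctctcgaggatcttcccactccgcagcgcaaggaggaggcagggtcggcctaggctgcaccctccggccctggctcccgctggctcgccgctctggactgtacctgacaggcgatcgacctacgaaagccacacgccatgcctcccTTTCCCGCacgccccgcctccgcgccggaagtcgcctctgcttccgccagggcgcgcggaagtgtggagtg
Cdc6, Clspn, Orc1 and Orc3 each hold 1 E2F form, and Pcna holds none of the forms searched in this window although it fell in both lineages. By the coordinates given, the whole Cdc6 stretch, with its E2F form, lies downstream of the start of the GENCODE gene. The Pcna stretch also lies partly inside its GENCODE gene. Sequence outside the windows was not searched. Orc3 holds a form and did not pass the test. The median share left in control quiescent thymocytes was 16.0% for the 12 genes with a form (0.406% to 105%) and 25.6% for the 22 without (5.17% to 160%), so the ranges overlap. In control small pre-B cells the order of these medians was the other way, 39.9% for the genes with a form and 34.9% for those without. A match to these letters is a description of the sequence.

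For the subunits of the firing kinase, Dbf4 and Cdc7, the log2 ratios of CKO over control were -0.13 and -0.15 in cycling thymocytes and -0.06 and -0.03 in large pre-B cells. Dbf4 stood at 47.2 and 42.9 FPKM in cycling thymocytes, 19.3 and 25.2 in quiescent thymocytes, 52.1 and 49.9 in large pre-B cells, 12.3 and 18.8 in small pre-B cells and 21.9 and 26.1 in granulocytes. It fell by 0.995 (SE 0.20, adjusted p = 0.0128) in thymocytes and fell by 1.68 (SE 0.20, adjusted p = 0.00394) in pre-B cells, the deepest fall of the 43 genes in that lineage. Cdc7, the catalytic subunit, stood at 29.5 and 26.4 FPKM in cycling thymocytes, 5.53 and 10.96 in quiescent thymocytes, 29.3 and 28.6 in large pre-B cells, 8.02 and 14.8 in small pre-B cells and 13.4 and 16.3 in granulocytes, and fell by 1.71 (SE 0.30, adjusted p = 0.00957) and fell by 1.33 (SE 0.30, adjusted p = 0.0174). Neither was 2-fold apart between genotypes in any population. The ratios of Dbf4 and Cdc7 were 0.36 and 0.87 in quiescent thymocytes and 0.58 and 0.81 in small pre-B cells.

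Cdc45 and the 4 GINS subunits complete the active helicase. Cdc45 stood at 55.7 and 63.9 FPKM in cycling thymocytes, 3.34 and 22.3 in quiescent thymocytes, 47.95 and 55.7 in large pre-B cells, 13.7 and 37.8 in small pre-B cells and 30.1 and 34.5 in granulocytes. Its level in quiescent thymocytes labelled CKO was between those of the quiescent control and the cycling pair, and its ratio of 1.39 in small pre-B cells was the highest of the 43 genes there. It fell by 2.59 (SE 0.54, adjusted p = 0.0147) in thymocytes, and its difference in pre-B cells was -1.14 (SE 0.54, adjusted p = 0.133).

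Gins1 stood at 30.7 and 34.6 FPKM in cycling thymocytes, 1.99 and 12.3 in quiescent thymocytes, 37.2 and 41.97 in large pre-B cells and 9.34 and 24.3 in small pre-B cells. Gins3 stood at 17.4 and 16.8 FPKM in cycling thymocytes, 2.37 and 6.37 in quiescent thymocytes, 13.4 and 15.2 in large pre-B cells and 5.59 and 11.2 in small pre-B cells. Both were 2-fold higher in quiescent thymocytes labelled CKO, with ratios of 2.15 and 1.13, and Gins1 was so in small pre-B cells (1.29) while Gins3 was not (0.89). Gins2 stood at 3.36 FPKM in control quiescent thymocytes and was listed at 0 in those labelled CKO. In the other lymphoid libraries Gins2 stood at 40.5 and 44.1 FPKM in cycling thymocytes, 46.2 and 55.7 in large pre-B cells and 12.7 and 33.99 in small pre-B cells, and in granulocytes at 5.46 and 5.43. Gins2 shares 2758 exonic bases with Gse1 on the opposite strand, and Gse1 was also listed at 0 in that library and stood at 82.7 FPKM in the quiescent control.

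Gins4 varied least of the GINS genes, at 37.7 and 37.7 FPKM in cycling thymocytes, 15.2 and 23.3 in quiescent thymocytes, 29.6 and 31.3 in large pre-B cells, 19.1 and 24.5 in small pre-B cells and 22.3 and 24.5 in granulocytes. Its share left in the non-dividing control cells was 40.3% in thymocytes and 64.5% in pre-B cells, against 6.46% and 25.1% for Gins1. Wdhd1, which tethers polymerase alpha to the helicase, was 2-fold higher in both non-dividing populations labelled CKO (ratios 1.16 and 1.12). In all, 6 of the 6 helicase cofactors fell in thymocytes, Gins2 there on its control pair alone. In pre-B cells 2, Gins2 and Wdhd1, fell. The Gins2 fit leaves out the missing library, so its thymocyte libraries add nothing to its spread. Its pre-B difference of -1.24 had an SE of 0.28. Gins1 had a larger difference, -1.32 (SE 0.49, adjusted p = 0.0733), and did not pass. The Gins2 call therefore does not set it apart from Gins1.

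All 9 polymerase and primase subunits fell in thymocytes, and 5 of them (Pola2, Prim2, Pold2, Pold3 and Pole2) fell in pre-B cells. Pola1, the catalytic subunit of the polymerase that starts each new strand, stood at 21.8 and 29.2 FPKM in cycling thymocytes, 0.462 and 9.76 in quiescent thymocytes, 33.1 and 40.7 in large pre-B cells, 8.42 and 19.1 in small pre-B cells and 6.096 and 5.93 in granulocytes. Pole, the catalytic subunit of the leading strand polymerase epsilon, stood at 11.9 and 17.5 FPKM in cycling thymocytes, 0.296 and 7.82 in quiescent thymocytes, 20.1 and 25.1 in large pre-B cells, 5.88 and 15.6 in small pre-B cells and 3.45 and 4.17 in granulocytes. Both were under 1 FPKM in control quiescent thymocytes and nowhere else, and their ratios there were 2.88 and 2.77.

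Prim1, the catalytic primase subunit, stood at 70.4 and 80.9 FPKM in cycling thymocytes, 5.19 and 37.1 in quiescent thymocytes, 60.9 and 65.1 in large pre-B cells and 20.1 and 51.6 in small pre-B cells, with ratios of 2.62 and 1.32 in the non-dividing populations. The partner subunits Pola2 and Prim2 differed less between genotypes, with ratios of 0.82 and 0.82 in quiescent thymocytes and 0.59 and 0.56 in small pre-B cells. Likewise Pole2 had a smaller ratio in quiescent thymocytes (0.99) than Pole. Polymerase delta, which copies the lagging strand, was 2-fold higher in quiescent thymocytes labelled CKO for each of Pold1, Pold2 and Pold3 (1.75, 1.31 and 1.14), and for none of them in small pre-B cells (0.46, 0.81 and 0.64). Pold2 stood at 30.7 and 30.5 FPKM in cycling thymocytes, 3.39 and 9.88 in quiescent thymocytes, 46.7 and 51.3 in large pre-B cells, 14.7 and 26.6 in small pre-B cells and 6.75 and 4.85 in granulocytes, and had the second lowest ratio of the 43 genes in granulocytes (-0.41). Whether subunits of 1 polymerase differ from each other was not tested.

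Pcna, the sliding clamp that holds polymerases on DNA, was the most abundant of the 43 transcripts, at 923 and 1120.3 FPKM in cycling thymocytes, 242 and 613 in quiescent thymocytes, 646 and 758 in large pre-B cells, 252 and 501 in small pre-B cells and 117 and 125 in granulocytes. It fell by 1.40 (SE 0.29, adjusted p = 0.0145) in thymocytes and fell by 0.98 (SE 0.29, adjusted p = 0.0393) in pre-B cells. Its ratios between genotypes were 1.34 in quiescent thymocytes and 0.99 in small pre-B cells, the latter just under the 2-fold rule. Named pseudogenes of Pcna are annotated (Pcna-ps1 and Pcna-ps2), and how the authors' counting shared reads between them is not given.

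The 5 subunits of replication factor C, which opens and loads that clamp, all fell in thymocytes. Rfc1, the large subunit, stood at 28.2 and 31.9 FPKM in cycling thymocytes, 12.97 and 19.4 in quiescent thymocytes, 34.99 and 40.5 in large pre-B cells, 17.99 and 27.3 in small pre-B cells and 29.6 and 30.2 in granulocytes. Rfc2 stood at 45.7 and 46.6 FPKM in cycling thymocytes, 14.4 and 20.2 in quiescent thymocytes, 76.3 and 77.97 in large pre-B cells, 38.9 and 51.6 in small pre-B cells and 69.2 and 41.4 in granulocytes. Rfc3 stood at 54.7 and 65.1 FPKM in cycling thymocytes, 15.7 and 34.1 in quiescent thymocytes, 51.5 and 59.8 in large pre-B cells, 32.02 and 45.4 in small pre-B cells and 8.13 and 10.02 in granulocytes. All 3 had their lowest lymphoid value in control quiescent thymocytes. They kept 46.02%, 31.5% and 28.7% of the cycling level in control quiescent thymocytes.

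Rfc4 kept 5.17% there, and stood at 56.5 and 67.5 FPKM in cycling thymocytes, 2.93 and 20.8 in quiescent thymocytes, 68.6 and 71.5 in large pre-B cells, 21.5 and 42.7 in small pre-B cells and 11.3 and 13.5 in granulocytes. Rfc5 stood at 42.9 and 43.2 FPKM in cycling thymocytes, 9.69 and 19.6 in quiescent thymocytes, 56.6 and 55.8 in large pre-B cells, 15.3 and 29 in small pre-B cells and 17.9 and 15.7 in granulocytes. Rfc4 had the lowest value of the complex in any lymphoid library, in control quiescent thymocytes, and the library labelled CKO was above it. In thymocytes Rfc1 fell by 0.87 (SE 0.15, adjusted p = 0.00903), Rfc2 fell by 1.38 (SE 0.15, adjusted p = 0.00559), Rfc3 fell by 1.32 (SE 0.21, adjusted p = 0.0078), Rfc4 fell by 2.76 (SE 0.52, adjusted p = 0.0112) and Rfc5 fell by 1.57 (SE 0.29, adjusted p = 0.011). In pre-B cells Rfc1, Rfc2 and Rfc5 fell, and Rfc3 and Rfc4 did not pass (adjusted p = 0.0838 and 0.11). Rfc4 and Rfc3 were 2-fold higher in quiescent thymocytes labelled CKO (2.47 and 1.073), and Rfc1 and Rfc2 had the smallest ratios (0.55 and 0.46).

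In granulocytes Rfc2 had the lowest ratio of the 43 genes, -0.73, at 69.2 FPKM in the control library and 41.4 FPKM in the library labelled CKO. Rfc2 shares 952 exonic bases with Lat2 on the opposite strand, and Lat2 stood at 6.06 and 2.05 FPKM in the same libraries. In the same pair, 5 primary granule markers of promyelocytes summed to 1518 and 630.0 FPKM, all 5 above 1 FPKM in both. Their part in the Rfc2 ratio was not tested. Dscc1, a subunit of the alternative loader that acts in cohesion, stood at 8.06 and 9.86 FPKM in cycling thymocytes, 1.23 and 4.97 in quiescent thymocytes, 8.77 and 12.1 in large pre-B cells and 3.21 and 8.71 in small pre-B cells, and was 2-fold higher in small pre-B cells labelled CKO (1.21). In quiescent thymocytes it did not reach 5 FPKM in either library.

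The 3 subunits of replication protein A, which coats single-stranded DNA, fell in thymocytes. Rpa1, the large DNA-binding subunit, stood at 80.1 and 78.8 FPKM in cycling thymocytes, 42.2 and 55.5 in quiescent thymocytes, 85.98 and 91.4 in large pre-B cells, 32.9 and 54.2 in small pre-B cells and 18.9 and 18.4 in granulocytes, and fell by 0.70 (SE 0.18, adjusted p = 0.0267) and fell by 1.05 (SE 0.18, adjusted p = 0.00872). Rpa2, the subunit phosphorylated in the damage response, was 2-fold higher in both non-dividing populations labelled CKO, at 19.1 and 47.3 FPKM in the thymocytes and 26.7 and 55.3 FPKM in the pre-B cells. Its difference over both was 1.15 (SE 0.10, adjusted p = 0.0586). Rpa3, the smallest subunit, stood at 81.1 and 69.5 FPKM in cycling thymocytes, 25.8 and 34.6 in quiescent thymocytes, 85.1 and 76.5 in large pre-B cells, 41.96 and 56.6 in small pre-B cells and 28.6 and 24.3 in granulocytes. It had the lowest ratio of the 43 genes in cycling thymocytes (-0.22).

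Fen1 trims the flaps of Okazaki fragments and Lig1 seals the nicks. Lig1 stood at 75.7 and 98.6 FPKM in cycling thymocytes, 2.23 and 34.4 in quiescent thymocytes, 93.6 and 121 in large pre-B cells, 24.5 and 64.9 in small pre-B cells and 21.3 and 26.1 in granulocytes. It was at 2.94% of the cycling level in control quiescent thymocytes and at 34.9% in those labelled CKO, and its ratios of 3.46 and 1.37 were among the highest of the 43 genes in both non-dividing populations. It fell by 3.03 (SE 0.69, adjusted p = 0.0186) in thymocytes. Its difference in pre-B cells, -1.39 (SE 0.69, adjusted p = 0.148), did not pass. Fen1 stood at 71.7 and 73.6 FPKM in cycling thymocytes, 12.04 and 32.9 in quiescent thymocytes, 73.6 and 76.2 in large pre-B cells and 27.9 and 48.4 in small pre-B cells, and fell by 1.81 (SE 0.34, adjusted p = 0.0111) in thymocytes.

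The 3 mediators that couple the fork to the checkpoint were 2-fold higher in both non-dividing populations labelled CKO. Clspn stood at 40.7 and 45.4 FPKM in cycling thymocytes, 0.165 and 15.5 in quiescent thymocytes, 31.8 and 33.2 in large pre-B cells, 8.75 and 19.9 in small pre-B cells and 7.57 and 6.96 in granulocytes, and fell by 3.33 (SE 0.81, adjusted p = 0.0227) in thymocytes. Its difference of -1.23 in pre-B cells (SE 0.81, adjusted p = 0.255) did not pass. Timeless and its partner Tipin stabilise stalled forks. Tipin stood at 65.3 and 66.8 FPKM in cycling thymocytes, 3.81 and 17.8 in quiescent thymocytes, 88.3 and 100.1 in large pre-B cells, 27.4 and 61.05 in small pre-B cells and 20.2 and 22.6 in granulocytes, and fell by 2.82 (SE 0.47, adjusted p = 0.00851) in thymocytes.

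Timeless stood at 27.6 and 39.3 FPKM in cycling thymocytes, 1.69 and 11.8 in quiescent thymocytes, 26.5 and 35.2 in large pre-B cells, 7.99 and 20.6 in small pre-B cells and 4.54 and 6.34 in granulocytes, and fell by 2.53 (SE 0.43, adjusted p = 0.00892) in thymocytes. With ratios of 0.50 in cycling thymocytes, 0.40 in large pre-B cells and 0.41 in granulocytes it was higher in every library labelled CKO, as were other genes such as Cdc6, Cdt1 and Pcna. Chaf1a and Chaf1b, subunits of the factor that places histones on new DNA, fell in thymocytes. Chaf1a stood at 39.5 and 40.8 FPKM in cycling thymocytes, 3.22 and 16.05 in quiescent thymocytes, 37.6 and 44.6 in large pre-B cells, 10.5 and 25.9 in small pre-B cells and 11.3 and 12.9 in granulocytes, with ratios of 2.01 and 1.22 in the non-dividing populations, and Chaf1b had 1.21 and 0.83. Chaf1a shares 4648 exonic bases with Ubxn6 on the opposite strand. In all, 12 of the 43 genes share exonic bases with another protein-coding gene, and the strand setting of the counting is not given.

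The share of the dividing level that was left in the non-dividing cells summarises both comparisons. In thymocytes it ran from 0.406% (Clspn) to 160% (Orc4) in the control libraries, with a median of 22.4%. In the libraries labelled CKO it ran from 26.7% (Tipin) to 141% (Orc4) with a median of 45.6%, over 42 genes. In pre-B cells the control libraries ran from 23.5% (Dbf4) to 149.6% (Orc4), median 36.0%, and the libraries labelled CKO from 37.7% to 129.9%, median 62.2%, with the same genes at the ends. All genes had medians of 106%, 105%, 103% and 95.9% in that order. At least 50% was left for 5 and 17 of the genes in control and CKO-labelled thymocytes, and for 9 and 41 in pre-B cells. The share of all genes at that bar was not counted, but each of their medians lay above it.

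**Figure D5:**
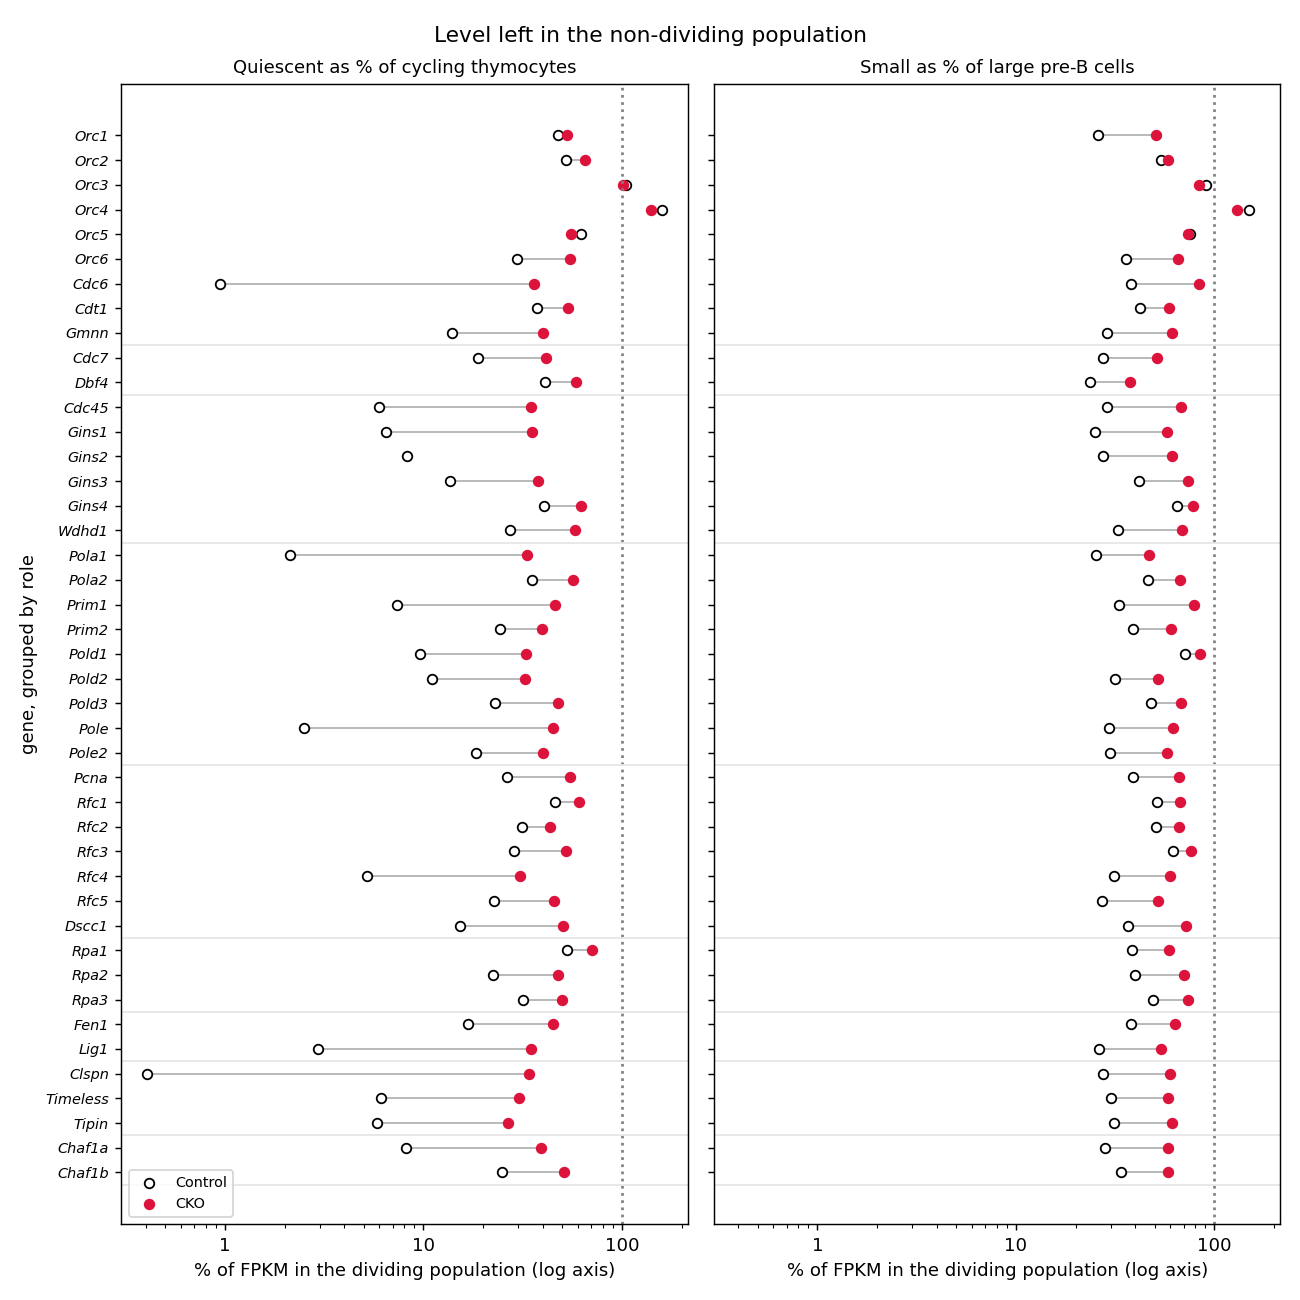
FPKM in the non-dividing population as a percent of FPKM in the dividing population (log axis) for each gene, in control libraries (open) and libraries labelled CKO (filled), for thymocytes (left) and pre-B cells (right). Control thymocytes spread down to 0.406% (Clspn), and the libraries labelled CKO start at 26.7% (thymocytes) and 37.7% (pre-B cells).

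A list of 50 other replication genes, of which 46 were measured, was examined in the same fits. In thymocytes 33 of the 46 fell and none rose, where 19.9% of all genes fell and 25.5% rose. In pre-B cells 22 fell and 1 rose, where 22.1% of all genes fell and 25.9% rose. Mcm10, an initiation factor, stood at 22.8 and 28.03 FPKM in cycling thymocytes, 0.0835 and 7.004 FPKM for the quiescent ones, 26.5 and 31.99 FPKM in large pre-B cells and 6.56 and 16.6 FPKM in small pre-B cells. The gene that rose in pre-B cells was Asf1a, a histone chaperone (log2 difference 0.55). In quiescent thymocytes 14 of the 37 at 5 FPKM or more in the higher library were 2-fold higher in the library labelled CKO (all genes 3.57%). In small pre-B cells 12 of 44 were (all genes 4.5%). None of the list was 2-fold lower in either population.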

How the data were processed

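RNA of sorted cells was sequenced on Illumina libraries, per the labels' protocols. The submitters' processing notes name TopHat2 2.0.8b, Cuffdiff 2.1.1 and build mm10 but not how each was used; the annotation and strand setting are not given in the sources used here. The deposited values, 1 table per library, are read as FPKM, a unit inferred from those tools and from the values, since per the labels none is named. Low values gave no whole reads (at most 114 of 1786 low genes lay at 1 common ratio), so depth is unknown.

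Of 23179 rows per table, 201 repeated another. For 158 symbols found more than once the most abundant row was used, leaving 22923. Analysis used log2(FPKM + 1), which understates changes of low genes. A 0 was counted as missing for a member, and for other genes where the other library of the population was at 10 FPKM or more (45 values in all, 1 of a member).

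Within a population 1 library per genotype allowed no test: genes at 5 FPKM or more in the higher library were counted at 2-fold. Fits across genes were made by limma-trend (limma 3.58.1 under R 4.3.3) for genes at 1 FPKM or more in 2 or more of the 8 lymphoid libraries, adjusted by Benjamini-Hochberg over all genes, threshold 0.05. State effects had a block per lineage and genotype, and genotype effects a block per population. All populations of 1 genotype share a pool of mice, so p-values measure how alike lineages or pools behave, not the spread between animals. Each fit was also run on simulated data with independent noise in each library. Such data cannot show the effect of a shared pool, or of a state effect that differs between genotypes. The 43 genes and the other gene lists were chosen with earlier results of these data known. Values in every library are given for the most abundant gene of each role, the extremes of each comparison, the origin recognition and replication factor C subunits, and Gins2. A planned search of protein motifs was not run. Alternatives were other pseudocounts, filters, scalings, thresholds, blocks, and fits without 1 pair of libraries at a time. GENCODE vM21 (mm10) gave gene positions and RefSeq the promoters. Other steps used Python 3.11.15, matplotlib 3.10.9, numpy 2.4.6 and pandas 2.3.3.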

Additional observations from a re-analysis of the deposited data

How the results depend on the processing

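Of 108 alternative values of the 12 comparisons, 91 were within 1.5 times the count reported. Among small pre-B cells 7 genes were 2-fold higher with a pseudocount of 5, and 30 were higher at a 1.5-fold threshold, instead of 16; in granulocytes 1 gene, Rfc2, was 1.5-fold lower. Without a filter on low values 21 instead of 42 genes passed in thymocytes, and calls over all genes went from 5040 to 3536. In pre-B cells 8 instead of 23 passed without the filter and 10 without the block. Calls over all genes there went from 5348 to 4043 and 3714. Leaving out 1 pair of libraries gave 0 to 39 calls in thymocytes, the same range in pre-B cells and 0 to 7 for the difference between lineages. For CKO over control in the non-dividing populations, median ratio scaling gave 10 calls, a lineage by genotype term gave 39 and leaving out a pair gave 0 to 31, where none was called otherwise; the difference between states gave 0 to 19. State fits give each gene 1 spread for both lineages. A state effect that differs between genotypes in thymocytes therefore also widens the standard error in pre-B cells. Without 1 pair, such a fit takes the spread of the remaining pair from the other lineage. How far this accounts for the moves was not tested. With its 0 kept as a value, the Gins2 difference between genotypes in the non-dividing populations reversed to -0.38. Of 1706 alternative values of 173 single-gene results, 1368 kept their direction and side of the threshold, 167 lost and 155 gained a call, and 15 ratios without a test moved, all of them with a pseudocount of 5. Scaling moved the median of all genes by 0.055 or less on the log2 scale. With 1 library per population and genotype, animals were not replicated, and the number of fragments behind each value is unknown.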

Other observations

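The level of a gene in the non-dividing library labelled CKO was placed on the scale from the non-dividing control (0%) to the dividing control (100%). Replication genes were placed only where the non-dividing control was under 75% of the dividing one, which left out Orc3 and Orc4 in both lineages, Orc5 in pre-B cells and, with its missing value, Gins2 in thymocytes. For 40 replication genes in thymocytes the median place was 36.1%, from -20.9% (Orc5) to 65.0% (Pole). For the 20 mitotic markers it was 15.3%, from 5.67% (Ube2c) to 33.9% (Mki67). In pre-B cells the medians were 54.8% over 40 replication genes, from 12.9% (Orc2) to 98.9% (Dscc1), and 17.5% over the mitotic markers, from 6.40% (Ube2c) to 32.9% (Mki67). The ranges of the lists overlap in both lineages, and with 1 library per population and genotype the difference between the lists was not tested. On the log2 ratio scale the medians of CKO over control over the genes at 5 FPKM or more in the higher library had the other order: 2.59 for the mitotic markers and 1.14 for the replication genes in quiescent thymocytes, and 0.97 and 0.90 in small pre-B cells.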
